A study of Mus musculus with 6 samples.

Results

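Toll-like receptors are pattern receptors that detect molecules of bacteria, viruses and damaged cells, and the 10 genes described here are 8 of these receptors with the co-receptor Cd14 and the adaptor Myd88. They were chosen by name, as the rows of the expression table whose Ensembl identifiers carry the symbols Tlr1, Tlr2, Tlr3, Tlr4, Tlr6, Tlr7, Tlr9, Tlr13, Cd14 and Myd88. All 10 were among the 26789 genes of the table. The study asked how a maternal diet restricted in sodium during early gestation affects microglia, the resident macrophages of the brain, in the nucleus of the solitary tract (NST), where taste afferents end. RNA was sequenced from microglia of control mice and of E3–E12 diet mice, whose mothers received the low sodium diet from E3 to E12 and standard chow afterwards. There were 3 libraries per group, 6 in all, and by the study's methods each came from the rostral NST of P15 littermates that were pooled, so that a library stands for 1 litter. The study's methods name C57Bl/6 controls, animals of both sexes and a selection of cells with CD11b magnetic beads, while the description deposited with the data names laser microdissection, so the isolation of the cells is uncertain. No transgene or deleted gene is named for either group, and the stated difference between them was the diet of the dams.

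Tlr1, Tlr2, Tlr4 and Tlr6 encode receptors of the cell surface. TLR4 with its partner MD-2 binds bacterial lipopolysaccharide, which CD14 hands over, and TLR2 binds bacterial lipopeptides as a dimer with TLR1 or TLR6. Tlr3, Tlr7, Tlr9 and Tlr13 encode receptors of the endosome, which bind double-stranded RNA, single-stranded RNA, unmethylated CpG DNA and bacterial ribosomal RNA. MYD88 carries the signal of every one of these receptors except TLR3, which signals through TRIF, and the signal ends in NF-kappaB and interferon regulatory factors and in the transcription of cytokines such as TNF. In the brain, microglia carry most of these receptors, and they are used to sense infection and injury.

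Tlr1 and Tlr6 lie beside each other on chromosome 5 on the minus strand and are close relatives, and the longest stretch that their transcripts share is shown because it limits how well reads can be given to one or the other. It is 229 bases long, lies within 1 coding exon of each gene, and is found at chr5:64925537-64925765 in Tlr1 and at chr5:64953828-64954056 in Tlr6 (GRCm38, minus strand).
shared stretch of Tlr1 and Tlr6: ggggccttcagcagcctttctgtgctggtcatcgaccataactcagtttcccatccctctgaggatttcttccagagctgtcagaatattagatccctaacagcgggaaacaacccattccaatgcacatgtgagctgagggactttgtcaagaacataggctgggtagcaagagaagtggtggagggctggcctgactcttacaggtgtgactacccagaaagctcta
Of all 50-base windows of the longest coding transcript, 15.3% in Tlr1 and 12.6% in Tlr6 also occurred in another gene, so reads from these windows could have been divided or dropped when the table was made and both values are uncertain to that extent. Myd88 shared 9.16% of its windows with Acaa1a, a gene on the opposite strand that overlaps it. Slc22a14, on the same strand, also overlaps Myd88, but no window was shared with it. Whether counting used the strand is not given in the sources used here, so the Myd88 value may hold reads of Acaa1a. For Tlr3 the share was 1.56%, with a gene model on the opposite strand, and for the other 6 members it was 0.

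RefSeq promoters, running from 250 bases before to 50 bases after a start, were matched for 7 of the 10 members, with 9 starts in all (GRCm38.p6). They were searched on both strands for the core GAGGAA of the myeloid factor PU.1, for the interferon response core AAANNGAAA and for the NF-kappaB consensus. The PU.1 core was present in 3 of the 9, against 28.3% of 32851 promoters, the interferon response core in 4 of the 9, against 10.6%, and the NF-kappaB consensus in 2 of the 9, against 8.46%. The promoters below are those of Tlr9 and Tlr13, whose levels were among the highest, of Tlr1, whose level relative to microglia markers is described further on, and of Tlr2, whose level varied least. The first 3 sequences are the 3 that hold a PU.1 core. Another Tlr1 start was matched, which held none of the motifs and is not shown. Capitals mark a PU.1 core in the first 3 sequences, and in Tlr2 an interferon response core followed by both places with the NF-kappaB consensus.
Tlr9 promoter, chr9:106222348-106222647, plus strand: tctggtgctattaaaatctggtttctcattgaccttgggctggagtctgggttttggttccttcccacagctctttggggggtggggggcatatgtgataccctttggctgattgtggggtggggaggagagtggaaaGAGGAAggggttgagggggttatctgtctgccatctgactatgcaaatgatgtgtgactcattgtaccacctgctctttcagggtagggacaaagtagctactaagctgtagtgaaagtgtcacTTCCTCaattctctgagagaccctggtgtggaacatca
Tlr13 promoter, chrX:106143025-106143324, plus strand: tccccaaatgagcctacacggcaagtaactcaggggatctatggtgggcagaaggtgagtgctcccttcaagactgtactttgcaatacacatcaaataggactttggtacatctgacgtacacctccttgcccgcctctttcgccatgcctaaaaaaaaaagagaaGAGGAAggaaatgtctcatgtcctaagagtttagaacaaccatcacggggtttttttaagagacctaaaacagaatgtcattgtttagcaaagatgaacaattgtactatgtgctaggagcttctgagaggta
Tlr1 promoter, chr5:64933509-64933808, minus strand: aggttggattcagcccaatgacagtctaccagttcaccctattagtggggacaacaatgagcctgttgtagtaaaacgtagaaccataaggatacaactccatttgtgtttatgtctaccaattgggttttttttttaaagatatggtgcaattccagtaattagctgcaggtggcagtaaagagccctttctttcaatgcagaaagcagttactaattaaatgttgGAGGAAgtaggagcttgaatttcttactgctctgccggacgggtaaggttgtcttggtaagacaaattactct
Tlr2 promoter, chr3:83841559-83841858, minus strand: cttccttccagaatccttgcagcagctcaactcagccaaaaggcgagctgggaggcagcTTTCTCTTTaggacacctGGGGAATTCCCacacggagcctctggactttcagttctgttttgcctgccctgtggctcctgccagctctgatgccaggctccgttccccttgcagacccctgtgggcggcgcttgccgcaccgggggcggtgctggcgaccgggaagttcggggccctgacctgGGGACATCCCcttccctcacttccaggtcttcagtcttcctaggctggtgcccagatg
No motif overlapped another kind of motif in these sequences, and a match says only that the letters are present. No entry was matched for Tlr4, Tlr7 and Cd14.

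The authors deposited normalized counts, so the number of reads behind a value is unknown and no interval from counting can be given. Normalized counts summed to between 9407141 and 17204618 per library. Between 3459 and 10640 genes were listed at 0, the most in control replicate 2, which also had the largest total. The 12 microglia markers examined (among them P2ry12, Tmem119, Cx3cr1 and Csf1r) were above 0 in every library, and their summed level differed widely. All 12 had a lower mean log2 level after the E3–E12 diet, with a median log2 fold change of -0.28 and none called by limma. By replicate 1, 2 and 3, the sum reached 106118, 529822 and 260281 normalized counts among controls against 104709, 247029 and 326199 after the E3–E12 diet, so that both replicate 1 libraries were lowest. Summed markers of monocytes and neutrophils (8 genes in the table) lay between 438 and 2531 among controls and between 532 and 799.9 after the E3–E12 diet, and Plac8 and Ly6g were at 0 in at least 1 library. Border macrophage markers (8 genes, none at 0) ranged from 6096 to 21169 among controls and from 6210.1 to 10060.1 after the E3–E12 diet, again with both replicate 1 libraries lowest. Summed choroid plexus markers ranged from 572 to 18942 among controls and from 58.0 to 40082 after the E3–E12 diet. Oligodendrocyte markers ranged from 4993 to 42918 and from 5882 to 23327, in the same order. Endothelial markers ranged from 4550 to 14238 and from 9103 to 15072. The part of other cells in the values below was not tested, and in bulk libraries of this kind fewer cells of a type and less RNA per cell cannot be told apart.

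Every member was detected in every library, with values from 133 normalized counts of Tlr1 in E3–E12 diet replicate 1 to 10031 of Tlr7 in E3–E12 diet replicate 3. No member passed a test of the difference between the diets. Over the 18007 genes whose mean reached 10 normalized counts, limma on log2(normalized count + 1) with Benjamini-Hochberg adjustment and the threshold of 0.1 called 0 of the 10 members and 0 genes in all, which is 0% of those tested, and the adjusted p of each member was 0.999. At an unadjusted p under 0.05 it marked 0 of the 10 members, against 1.82% of all genes tested (327 genes). The 3 libraries of one diet lay entirely above those of the other in 0 of the 10 members, against 5.9% of all genes. 5 members had a higher and 5 a lower mean log2 level in E3–E12 diet mice, and their median log2 fold change (E3–E12 diet minus control) was -0.05, against 0.09 over all genes tested. That median ran from -0.46 without control replicate 1 to 0.43 without E3–E12 diet replicate 1. The members' log2 fold changes had standard errors between 0.55 and 0.86 (median 0.72, against 0.85 over all genes), and the 95% interval of every member reached more than 1 to either side of its log2 fold change, so a change of that size could be missed. The limma p-values rest on the spread between 3 litters per group as the study describes them, drawn toward a variance shared over all genes (empirical Bayes moderation). For a steady gene such as Tlr2, the standard error and interval therefore come partly from other genes. An exact permutation test of 3 against 3 libraries cannot go below p = 0.1.

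**Figure D1:**
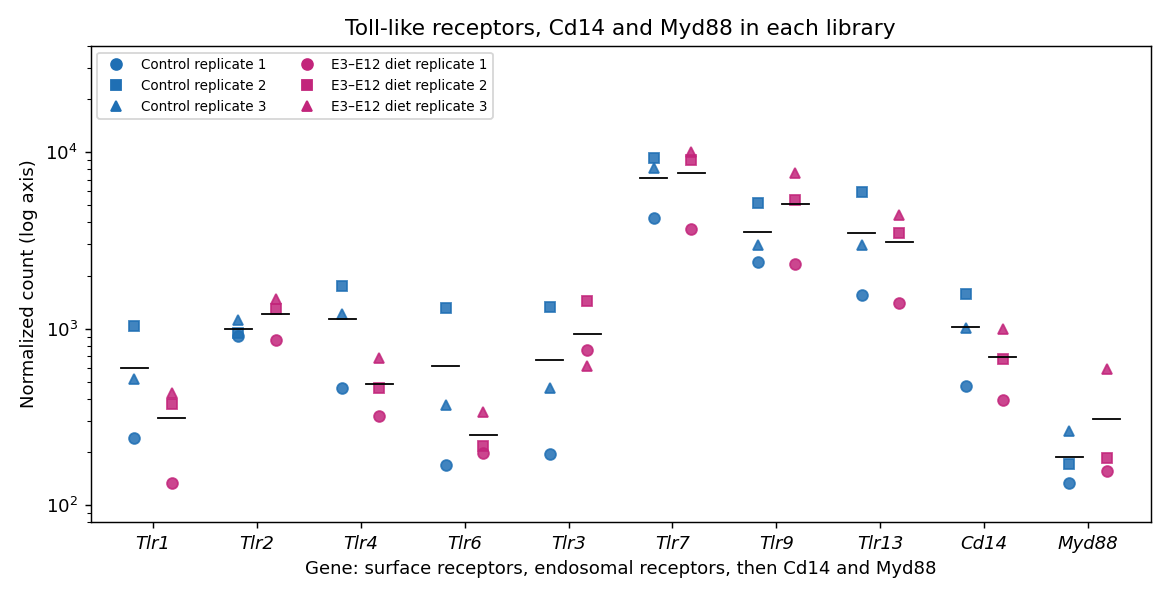
Normalized counts (log axis) of the 10 genes in the 3 control (blue) and 3 E3–E12 diet (magenta) libraries, with the replicate number given by the shape of the point and the group mean by a horizontal line. The groups overlap in every gene, Tlr7 lies highest with 3681 to 10031, and circles, the replicate 1 libraries, lie at the bottom of most groups.

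Among the surface receptors, 3 of 4 had a lower mean in E3–E12 diet mice and their median log2 fold change was -0.85, without any of them passing a test. Tlr4, the lipopolysaccharide receptor, gave 463, 1735 and 1217 normalized counts in the controls and 319, 462 and 684 after the E3–E12 diet, in the order of replicates 1, 2 and 3 that is kept for every gene below. Control replicate 1 lay among the E3–E12 diet values and the other two controls lay above all of them, so the groups overlapped through that 1 library. The means were 1138 ± 639.7 and 489 ± 184 (SD, n = 3 each), with a log2 fold change of -1.09 (SE 0.72, 95% interval -2.81 to 0.63, two-sided exact permutation p = 0.2), the widest distance from 0 of the 10 members.

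Tlr1, which recognises triacylated lipopeptides with TLR2, gave 239, 1029 and 520.0 in the controls, and the E3–E12 diet litters gave 133, 373 and 433. Its lowest control lay inside the E3–E12 diet range and the others above it. The means were 596 ± 400.3 and 313 ± 159 (SD, n = 3 each), and the log2 fold change was -0.86 (SE 0.81, 95% interval -2.80 to 1.08, exact permutation p = 0.4).

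Tlr6, the partner of TLR2 for diacylated lipopeptides, read 169, 1315 and 369.6 over the controls against 197, 217 and 339 over the E3–E12 diet litters. Control replicate 2 stood far above every other library, while the other two controls lay on either side of the E3–E12 diet values. The log2 fold change of -0.83 (SE 0.86, 95% interval -2.89 to 1.23, exact permutation p = 0.6) rested on that library, being -0.04 without it.

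Tlr2, the shared partner of TLR1 and TLR6, was the steadiest member, with its highest library only 1.70 times its lowest. It had control values of 914, 940.1 and 1121 and E3–E12 diet values of 865, 1296 and 1473. E3–E12 diet replicate 1 was lowest of all and the other two lay above the controls. The means were 992 ± 113 and 1211 ± 312 (SD, n = 3 each), a log2 fold change of 0.26 (SE 0.55, 95% interval -1.05 to 1.57, exact permutation p = 0.4).

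Cd14, which passes lipopolysaccharide to TLR4, measured 472, 1572 and 1005 among controls and 395, 677 and 999 after the E3–E12 diet. Within each group the order of the libraries was that of their microglia markers, lowest in replicate 1, and the groups overlapped. Its log2 fold change was -0.49 (SE 0.71, 95% interval -2.20 to 1.21, exact permutation p = 0.4), with means of 1016 ± 549.8 and 690.4 ± 302 (SD, n = 3 each).

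The endosomal receptors had a median log2 fold change of 0.24, with 3 of 4 means higher and none past a test. Tlr7, the receptor of single-stranded RNA, gave 4244, 9213 and 8097 normalized counts in the controls, and the E3–E12 diet litters gave 3681, 9024 and 10031. Both replicate 1 libraries were low by about the same amount and the other 4 lay close together, with means of 7185 ± 2607 and 7579 ± 3413 (SD, n = 3 each). The log2 fold change of 0.02 (SE 0.68, 95% interval -1.60 to 1.65, exact permutation p = 1.0) was the closest to 0 of the members, and its interval still allowed changes in either direction.

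Tlr9, the receptor of CpG DNA, read 2377, 5184 and 2973 over the controls against 2317, 5363 and 7627 over the E3–E12 diet litters. The highest values were those of E3–E12 diet replicates 3 and 2, followed closely by control replicate 2. The means were 3511 ± 1479 and 5102 ± 2664 (SD, n = 3 each), a log2 fold change of 0.46 (SE 0.70, 95% interval -1.21 to 2.13, exact permutation p = 0.5).

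Tlr13, which detects bacterial ribosomal RNA, had control values of 1543, 5922 and 2991 and E3–E12 diet values of 1406, 3471 and 4399. The replicate 1 libraries were again lowest and control replicate 2 highest. The log2 fold change was -0.12 (SE 0.78, 95% interval -1.97 to 1.74, exact permutation p = 0.9), and its sign turned to 0.08 with quantile normalization and to 0.0039 with libraries scaled to the same total.

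Tlr3, the receptor of double-stranded RNA, measured 194, 1325 and 463 among controls and 758, 1442 and 613 after the E3–E12 diet. Both replicate 2 libraries were highest and 2 controls were lowest, so the groups overlapped only through control replicate 2. This gave a log2 fold change of 0.83 (SE 0.85, 95% interval -1.22 to 2.87, exact permutation p = 0.4), with means of 661 ± 591 and 938 ± 443 (SD, n = 3 each). It was 0.16 without control replicate 1 and 1.54 without control replicate 2.

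Myd88, the shared adaptor, gave 134, 169.9 and 262 in the controls, and the E3–E12 diet litters gave 156, 184 and 588. A single library, E3–E12 diet replicate 3, lay far above the rest. With all libraries the log2 fold change was 0.50 (SE 0.73, 95% interval -1.24 to 2.24, exact permutation p = 0.6), and without that one it was -0.10.

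**Figure D2:**
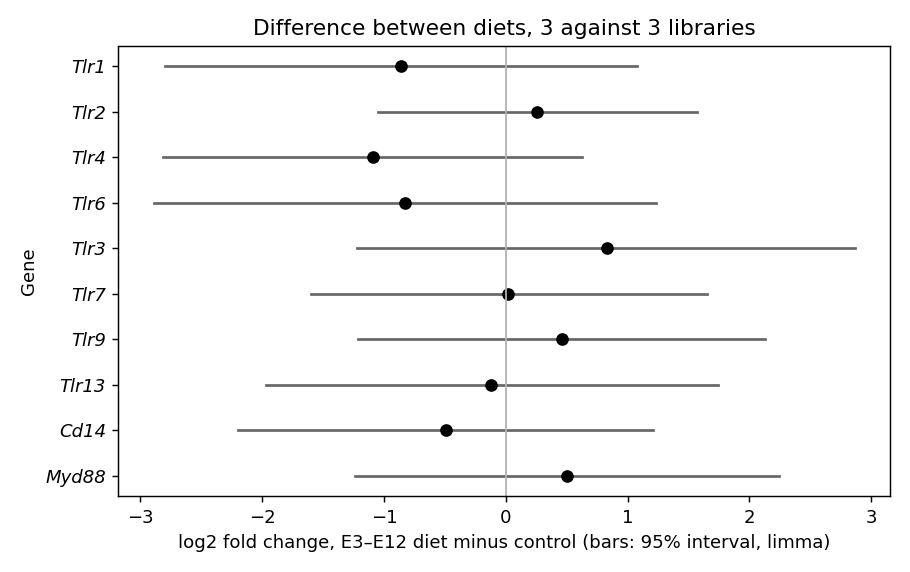
Log2 fold change of each gene (E3–E12 diet minus control, on the log2(normalized count + 1) scale) as a point with its 95% interval from limma as a bar. All 10 intervals include 0, from Tlr4 at -1.09 to Tlr3 at 0.83.

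The members tended to be low in the same libraries. In 8 of the 10 members, all but Tlr3 and Tlr4, the pair of lowest values came from control replicate 1 and E3–E12 diet replicate 1. In these libraries the microglia markers were also lowest, and so were the summed normalized counts (9671119 and 9407141, against 11192984 or more elsewhere). The share of all genes with this pattern was not computed, so it cannot be called particular to the members. The lowest library was E3–E12 diet replicate 1 for 7 members and control replicate 1 for 3, and the highest was control replicate 2 for 5, E3–E12 diet replicate 3 for 4 and E3–E12 diet replicate 2 for 1. Without control replicate 1, 4 members (Tlr1, Tlr4, Tlr6 and Cd14) had E3–E12 diet values that all lay below the remaining controls, against 8.16% of all genes. Without E3–E12 diet replicate 1, Tlr2 and Tlr9 were higher without overlap, against 7.6% of all genes. Without control replicate 2, Tlr3 was higher, against 6.7%, and without E3–E12 diet replicate 3, Tlr4 was lower, against 6.53%. No member separated without control replicate 3, where 5.69% of all genes were lower and 6.88% higher. None did without E3–E12 diet replicate 2 either, where 6.25% were lower and 6.88% higher. limma marked no member at an unadjusted p under 0.05 in any of these fits.

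Levels can be compared between genes only per length, and here they are given as normalized counts per kilobase of the longest coding transcript, averaged over the 6 libraries. The endosomal receptors Tlr7 (1894), Tlr9 (1238) and Tlr13 (810.0) came first, each above the next in 6 of 6 libraries. Cd14 (520.0) and Tlr2 (365) followed, and between these neighbours Cd14 was higher in only 3 of 6 libraries. Tlr4 (199.5), Tlr3 (181), Tlr1 (150.2), Myd88 (127) and Tlr6 (118) formed the lower end, where Tlr4 exceeded Tlr3 in 4, Tlr3 exceeded Tlr1 in 2, Tlr1 exceeded Myd88 in 4 and Myd88 exceeded Tlr6 in 5 of the 6 libraries. The order among these 5 is therefore not fixed by the data, and dividing by coding length instead exchanged Tlr1 and Myd88. Together the 4 endosomal receptors made up between 79.6% and 87.4% of the summed level per kilobase of the 8 receptors in each library. Tlr3 was ninth of the 10 by the mean of the controls and sixth by that of the E3–E12 diet libraries, whereas Tlr4 went from sixth to eighth.

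**Figure D3:**
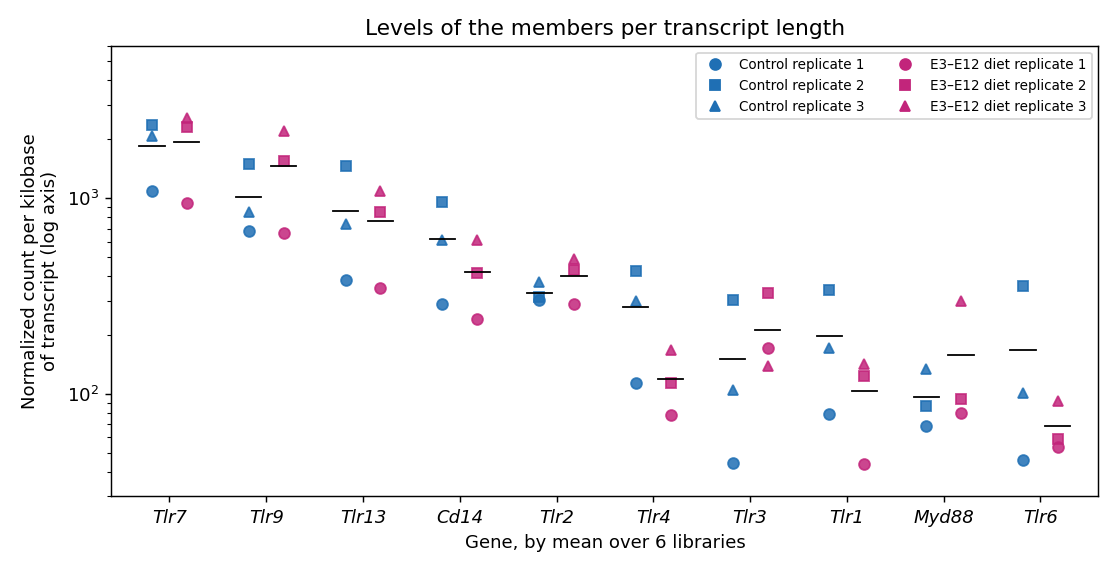
Normalized counts per kilobase of the longest coding transcript (log axis) for the 10 genes, ordered by their mean over 6 libraries, with control libraries in blue, E3–E12 diet libraries in magenta and horizontal lines at group means. Tlr7, Tlr9 and Tlr13 lie above the others, with means of 1894, 1238 and 810.0, and Tlr6 is lowest at 118.

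Because both replicate 1 libraries were poor in microglia markers, each member was also expressed as a percent of the summed level of the 12 markers in the same library, a scale that was chosen after the data were seen. On it, Tlr13 was the steadiest member, between 1.12% and 1.45%, a range of 1.30 times against 4.21 times in normalized counts. Tlr2, by contrast, spread from 0.177% to 0.862%, or 4.86 times, although it was the steadiest member in normalized counts, and it was highest in both replicate 1 libraries. Myd88 spread most, over 5.62 times.

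Tlr1 amounted to 0.225%, 0.194% and 0.200% of the markers among controls and to 0.127%, 0.151% and 0.133% after the E3–E12 diet. The groups did not overlap, and each was tight, at 0.206% ± 0.0167 and 0.137% ± 0.0127 (SD, n = 3 each). Tlr4 reached 0.436%, 0.327% and 0.467% among controls but 0.305%, 0.187% and 0.210% after the E3–E12 diet, and these groups did not overlap either. So 2 of the 10 members were lower without overlap on this scale, against 1.21% of all genes tested, and 0 were higher, against 0.989%. limma on the scaled values gave log2 fold changes of -0.59 for Tlr1 and -0.83 for Tlr4, with an adjusted p of 1.0 for both after Benjamini-Hochberg adjustment. Csf1r made up between 40.9% and 52.9% of the summed markers, and the ratio depends on that choice. Against each of the 12 markers alone, Tlr1 was lower without overlap for 4 (Tmem119, Cx3cr1, Csf1r and Sall1) and Tlr4 for 5 (Cx3cr1, Csf1r, Aif1, Sall1 and Siglech). Tlr9 was higher without overlap for 3 of the 12, and the other members overlapped for every marker. Against the geometric mean of the 12, Tlr1 and Tlr4 were lower and the other members overlapped. The share over all genes was not computed for these denominators, so the counts are a description only.

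Tlr3 came to 0.724% and 0.584% of the markers in E3–E12 diet replicates 1 and 2, while E3–E12 diet replicate 3 (0.188%) lay among the controls (0.183%, 0.250% and 0.178%). Tlr9 read 2.24%, 0.979% and 1.14% over the controls against 2.21%, 2.17% and 2.34% over the E3–E12 diet litters, where only control replicate 1 reached the range of the other group. Markers of astrocytes, which are known to carry Tlr3, summed to 9153, 1738 and 5599 normalized counts among controls and to 9914, 4844 and 5098 after the E3–E12 diet (8 genes, of which Gfap, Aldh1l1 and Gjb6 were at 0 in at least 1 library). Each of the 8 was higher on average after the E3–E12 diet, with a median log2 fold change of 1.46 and none called by limma, and their part in the Tlr3 values was not tested.

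**Figure D4:**
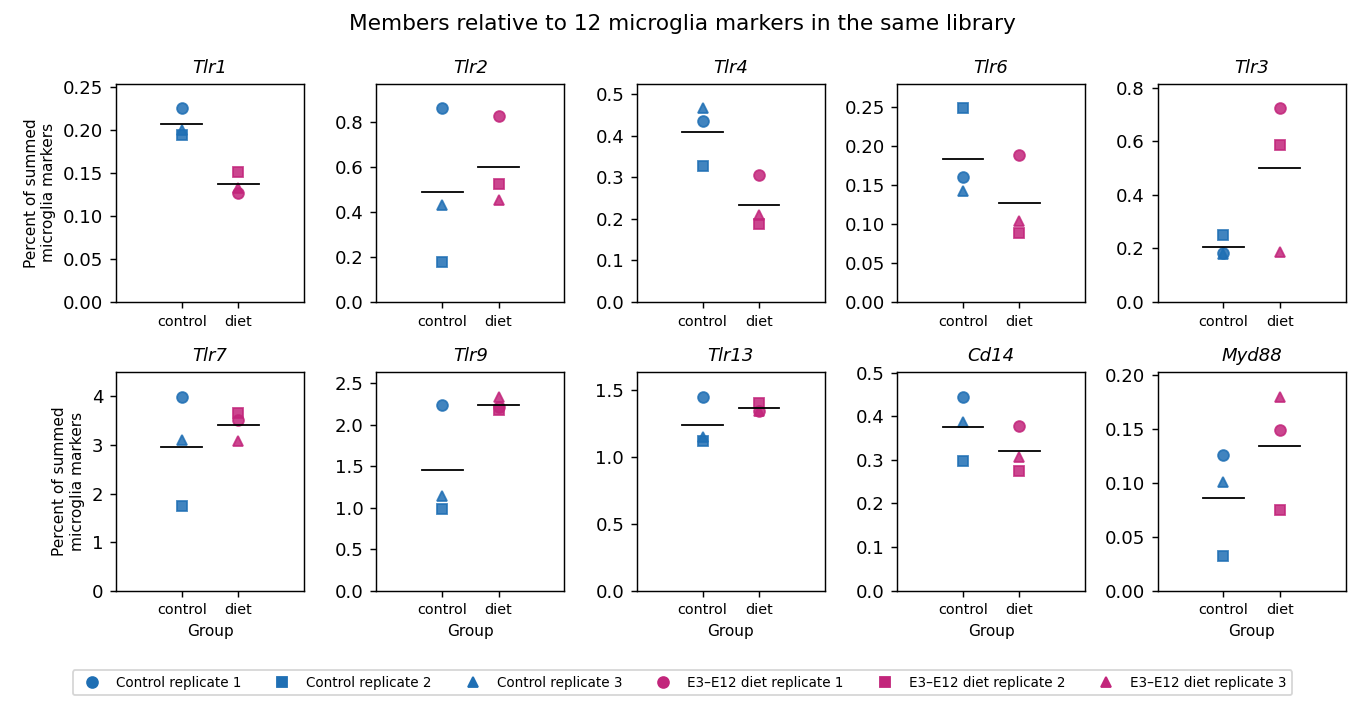
Each gene as a percent of the summed normalized counts of 12 microglia markers in the same library, on linear axes from 0, with control libraries in blue, E3–E12 diet libraries in magenta, shapes for replicate numbers and horizontal lines at group means. The groups are apart for Tlr1 (0.194% to 0.225% against 0.127% to 0.151%) and for Tlr4, and overlap for the other 8 genes.

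Set against the summed endosomal receptors instead of the microglia markers, another scale chosen after the data were seen, the 4 surface receptors together came to 21.4%, 23.2% and 22.2% among controls and to 18.6%, 12.2% and 12.9% after the E3–E12 diet. Every E3–E12 diet library lay below every control, with means of 22.3% ± 0.914 and 14.5% ± 3.50 (SD, n = 3 each). Cd14 came to 5.65%, 7.26% and 6.92% among controls and to 4.84%, 3.51% and 4.41% after the E3–E12 diet, also without overlap. Tlr1 and Tlr4 were lower without overlap on this scale as well, so 3 of the 6 members outside the endosome were, against 4.3% of all genes, while Tlr2, Tlr6 and Myd88 overlapped. Of the 16 ratios of a single surface receptor to a single endosomal receptor, 9 were lower without overlap, namely all 4 of Tlr1, all 4 of Tlr4 and that of Tlr6 to Tlr3, and none was higher. Over all genes tested, 5.4% of the ratios to a single endosomal receptor were lower without overlap, from 1.94% with Tlr13 to 9.09% with Tlr3 as the denominator. Higher ratios without overlap were rarer among all 18007 genes: 19 with Tlr3, 58 with Tlr9, 171 with Tlr13 and 200 with Tlr7. With these denominators genes in general tended to the lower side. The tightest of the 9 lower ratios was Tlr1 to Tlr13, at 15.5% to 17.4% among controls and 9.44% to 10.7% after the E3–E12 diet. These ratios share libraries and members and are given as a description.

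For the 3 members with the highest normalized counts, the genes with the most similar profile were those with the smallest root mean square difference of centred log2 values over the 6 libraries, among 10416 genes whose mean reached 100. For Tlr13 they were Inpp5d (0.075), Man2b1 (0.129) and Slc29a3 (0.132), which encode the inositol phosphatase SHIP1, a lysosomal mannosidase and a nucleoside transporter. For Tlr7 they were Timp2 (0.097), Git2 (0.10) and Mef2a (0.102). For Tlr9 they were Josd1 (0.144), Fgd3 (0.150) and Zfp212 (0.160). Among the members themselves, Tlr13 and Cd14 were most alike (0.262), then Tlr7 and Tlr13 (0.287), and Tlr3 and Myd88 were least alike (1.174).

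Of 68 other genes of the Toll pathway, 64 passed the filter on low values, of which 31 had a higher and 33 a lower mean in E3–E12 diet mice, with a median log2 fold change of -0.02 against 0.09 over all genes. limma with Benjamini-Hochberg adjustment called 0 of them. At an unadjusted p under 0.05 it marked 2, the cytokine gene Tnf and the chemokine gene Cxcl1, both higher, against 0.95% of all genes tested. The groups did not overlap in 5, all higher, against 2.99% of all genes: Tnf, Cxcl1, Ccl5, Rsad2 and Nfkbia. All of these are genes that Toll-like receptor signals are known to induce, and Nfkbia encodes the inhibitor IkappaB-alpha.

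Tnf had control values of 1083, 1012 and 825 normalized counts and E3–E12 diet values of 2342, 1789 and 4982. The controls lay close together and every E3–E12 diet library was above them, with means of 973 ± 133 and 3038 ± 1707 (SD, n = 3 each). The log2 fold change was 1.51 (SE 0.62, 95% interval 0.02 to 3.0), with an unadjusted p of 0.048 and an adjusted p of 0.999 by limma, and the exact permutation p was 0.1, the smallest possible. The study, with DESeq2 on counts and its threshold of 0.1, listed Tnf and Nfkbia as higher in E3–E12 diet mice. Cxcl1, Ccl5 and Rsad2 were not among the genes it listed.

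Nfkbia measured 2392, 1519 and 2284 among controls and 3734, 4548 and 5034 after the E3–E12 diet. All 3 E3–E12 diet libraries were above the highest control, and the log2 fold change was 1.12 (SE 0.55, 95% interval -0.19 to 2.43). Cxcl1, a neutrophil attractant, had low levels, with control values of 21.8, 1.96 and 8.75 and E3–E12 diet values of 36.1, 43.9 and 28.4, with a log2 fold change of 2.07 (SE 0.85, 95% interval 0.04 to 4.11) and an adjusted p of 0.999 by limma (unadjusted p = 0.047). Its lowest value came from control replicate 2, the library with the most genes at 0, as did those of Nfkbia, Rsad2 and Ccl5.

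The other pair were interferon-related and low. Rsad2, which encodes the antiviral protein viperin, gave 62.6, 14.0 and 55.7 in the controls, and the E3–E12 diet litters gave 95.7, 87.3 and 141, with a log2 fold change of 1.5 (SE 0.75). Ccl5 read 12.3, 1.69 and 18.5 over the controls against 19.0, 19.4 and 153 over the E3–E12 diet litters, so that 2 of the latter were barely above the highest control. Relative to the microglia markers, Tnf, Nfkbia, Cxcl1, Rsad2 and Ccl5 all overlapped between the diets. Control replicate 1 then lay among the E3–E12 diet values.

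**Figure D5:**
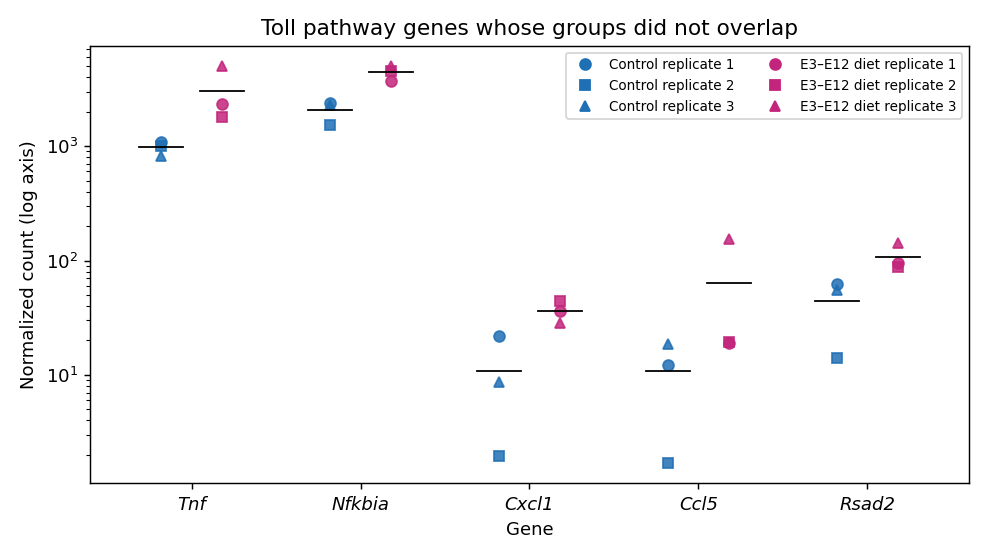
Normalized counts (log axis) of the 5 Toll pathway genes outside the receptors whose groups did not overlap, in control (blue) and E3–E12 diet (magenta) libraries, with shapes for replicate numbers and horizontal lines at group means. Tnf separates at 1083 and below against 1789 and above, and Nfkbia at 2392 and below against 3734 and above.

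Of the 19 induced genes tested, 12 had a higher and 7 a lower mean in E3–E12 diet mice, and the median log2 fold change was 0.09, the same as that of all genes. The interleukin gene Il1b, another target of NF-kappaB, had control values of 568, 386 and 535 and E3–E12 diet values of 321, 532 and 719, which overlapped. Il1b was chosen for mention after its values were seen. Among inhibitors 2 of 7 were higher, among adaptors and kinases 9 of 20, among transcription factors 3 of 6, and among co-receptors and chaperones 3 of 8, none of them called.

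The receptors outside the 10 members varied widely. Cd180, an atypical receptor that forms a complex with the Ly86 product MD-1, measured 4818, 22857 and 12940.0 among controls and 4935, 7747 and 16549.6 after the E3–E12 diet, low in both replicate 1 libraries like most members. Tlr5, the flagellin receptor, was at 38.7, 17.9 and 412 in the controls and was listed at 0 in E3–E12 diet replicate 1, with 244 and 214 in the other two. Tlr8 lay between 29.2 and 232, Tlr12 between 35.9 and 129.9, and Tlr11 averaged 6.03 and was not tested.

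Among the partners of the receptors, Unc93b1, the chaperone that brings endosomal receptors to their compartment, gave 2172, 9806 and 5449.7 in the controls, and the E3–E12 diet litters gave 2552, 5812 and 6244, with a log2 fold change of -0.11 (SE 0.78). Ly96, which encodes MD-2, ranged from 42.4 in control replicate 2 to 431 in E3–E12 diet replicate 3, and had a log2 fold change of 0.91 (SE 0.99). Ly86 (log2 fold change -0.26, SE 0.82), Lbp, a lipopolysaccharide carrier (-0.31, SE 1.51), and Cd36, a scavenger receptor (0.90, SE 1.13), overlapped as well. The TRIF gene Ticam1 read 272, 1032 and 851 over the controls against 267, 665 and 679.8 over the E3–E12 diet litters, with a log2 fold change of -0.33 (SE 0.77). Log2 fold changes were 0.29 (SE 0.64) for the adaptor Tirap, -0.06 (SE 0.74) for the adaptor Ticam2, which shared 19.0% of its windows with Tmed7, -0.89 (SE 0.82) for the kinase Irak4 and -0.07 (SE 0.62) for the ubiquitin ligase Traf6.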

How the data were processed

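Normalized counts (a signal on a linear scale) for 26789 genes in 6 libraries were deposited by the authors, and the submitters' processing notes name FastQC, STAR, featureCounts, DESeq2 and GRCm38. The study's methods describe amplified RNA and paired-end reads, while the labels name TruSeq libraries and longer reads, so the library kit and the read length are uncertain. Windows of 50 bases were used to look for sequence shared between genes, and shares at the longer read length were not computed. The name of the table refers to surrogate variables, and the sources used here describe no such step. Values did not resolve into whole reads, so depth is unknown and no count model was used, although the study used DESeq2 on counts with the threshold of 0.1 that is kept here. The study listed genes past that threshold in both directions, and no member was among them.

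Symbols were matched by Ensembl identifier for 26507 genes. log2(normalized count + 1) was compared between diets for the 18007 genes whose mean reached 10. This used limma 3.58.1 (R 4.3.3), moderated and two-sided, with Benjamini-Hochberg adjustment over all of them. The simulated data on which the fit was tested had less noise than the members' median spread between replicates. That test therefore does not show how many changes the fit would find in these libraries. A fold change on the log2(normalized count + 1) scale understates the change of low genes. Exact permutation tests used scipy 1.17.1. Spearman correlations over genes lay between 0.735 and 0.880 among controls, 0.776 and 0.873 among E3–E12 diet libraries and 0.690 and 0.912 between groups, and no library was left out. Lengths, coordinates and 50-base windows shared between genes came from GENCODE vM21 (GRCm38), and promoters from RefSeq (GRCm38.p6).

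The members and gene lists were chosen with earlier results of these data known. All members were named, with the other Toll pathway genes that had an unadjusted p under 0.05 or no overlap, the receptors, the co-receptors, and the adaptors Tirap, Ticam1, Ticam2, Irak4 and Traf6. The 3 most similar genes were named for each of the 3 members with the highest mean. Alternatives were other pseudocounts, filters, scalings, priors and covariates, the replicate number as a block and each library left out, and scaling to microglia markers was added after the data were seen.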

Additional observations from a re-analysis of the deposited data

How the results depend on the processing

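No gene passed the adjusted threshold under any of the 16 alternatives, and no member reached an unadjusted p under 0.05 (smallest 0.0669, Tlr4). The median log2 fold change of the members (-0.05) was 0.15 with quantile normalization, 0.07 with the same total per library, 0.22 with microglia marker scaling and -0.46 to 0.43 with 1 library left out, against a spread between replicates of 0.66 (SD). Of 160 member values, 151 kept their direction. The 9 others were Tlr7 (-0.32 to 0.48 with 1 library left out), Tlr13 (quantile normalization 0.079, same total 0.0039, microglia marker scaling 0.15, 1 library left out -0.60 to 0.38) and Myd88 (-0.10 to 0.86 with 1 library left out). Over all alternatives the rest ran from -1.39 to -0.33 for Tlr1, 0.10 to 0.52 for Tlr2, 0.16 to 1.54 for Tlr3, -1.64 to -0.69 for Tlr4, -1.51 to -0.037 for Tlr6, 0.086 to 0.95 for Tlr9 and -0.96 to -0.097 for Cd14. Genes under an unadjusted p of 0.05 numbered 327, against 156 with a mean of at least 100, 491 with quantile normalization, 1423 with a covariate from the residuals (their first principal component), 139 with microglia marker scaling, and 276 to 551 with 1 library left out. Genes without overlap numbered 1062, against 639 with a mean of at least 100, 395 with microglia marker scaling, and 2263 to 3197 with 1 library left out, where fewer samples are compared. The 2 pathway genes under an unadjusted p of 0.05 became 1 with a pseudocount of 10, 1 without a filter, 0 with microglia marker scaling and 0 to 2 with 1 library left out (0 without control replicate 2, control replicate 3 or E3–E12 diet replicate 3). The causes were not tested. The median of all genes moved by 0.11 with the same total per library, 0.24 with microglia marker scaling and -0.11 with a mean of at least 100.

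Same-numbered libraries of the diets deviated together with correlations of 0.260, 0.0348 and 0.142 across genes, so the numbers were not taken as pairs. The replicate block gave 0 genes past the adjusted threshold and 468 under an unadjusted p of 0.05. Not every library correlated best with its own number.

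Of the other pathway genes, only the 19 named in the text were recomputed one by one. Among them the direction turned in Tlr8 (-0.39), Unc93b1 (0.12), Ticam2 (0.055), Traf6 (0.084) with quantile normalization, in Unc93b1 (0.012), Ticam2 (0.063), Traf6 (0.046) with the same total per library and in Ly86 (0.0041), Unc93b1 (0.16), Ticam2 (0.21), Traf6 (0.19) with microglia marker scaling. With 1 library left out it turned in 11 of the 19, whose log2 fold changes ran over Tlr5 -2.21 to 1.76, Tlr8 -0.47 to 1.01, Cd180 -1.0 to 0.12, Ly96 -0.020 to 1.54, Ly86 -0.78 to 0.37, Lbp -1.77 to 0.49, Unc93b1 -0.69 to 0.40, Tirap -0.18 to 0.66, Ticam1 -0.92 to 0.11, Ticam2 -0.64 to 0.50 and Traf6 -0.25 to 0.26. With all libraries the 95% interval of each of these 11 genes includes 0. With normalized counts only, the depth behind a value is unknown, and with 3 libraries per group and standard errors of 0.55 to 0.86, the 95% interval of every member reached more than 1 to either side of its log2 fold change.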
